A study of Mus musculus with 6 samples.

Results

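The 10 genes described here are the regulators of the myocardin-SRF system and a set of noncoding RNAs, chosen by name: Myocd, Srf, Mkl1, Mkl2, Tet2 and Olfm2 code for proteins, and Carmn, Malat1, Neat1 and Meg3 are long noncoding RNAs. They are 10 of the 31053 mouse genes counted, and each symbol occurred on exactly 1 row of the count matrix. The counts come from single cells of the aortic root and ascending aorta of 6 mice at 16 weeks of age, sorted as live cells and sequenced as 1 library per mouse. By their labels, 4 mice were controls (CTL, Tgfbr1+/+) and 2 were a Loeys-Dietz syndrome model (LDS, Tgfbr1M318R/+, heterozygous for a missense allele of the TGF-β type I receptor). Of the controls, 2 also carried the labels Wnt2CRE and EGFP-L10a, a Cre driver used to mark cardiac neural crest (CNC) cells and its conditional fluorescent tracer. The methods describe female mice on a 129 background. The libraries are told apart by a barcode suffix that no source used here pairs with a mouse, and a comparison of the genotypes was therefore not made. All values are given per library, and a direction seen in 6 of 6 libraries was seen in mice of both genotypes. The protocol gives more than 1 digestion time, without saying which applied to which library.

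SRF is a transcription factor that binds CArG boxes, short AT-rich motifs in the promoters of contractile and of immediate-early genes. Which of these it activates depends on its coactivators: myocardin, made in cardiac and smooth muscle, and the myocardin-related factors MRTF-A and MRTF-B (here Mkl1 and Mkl2), which are held in the cytoplasm by monomeric actin and enter the nucleus when actin polymerizes. In vascular smooth muscle cells (VSMCs) this system keeps the contractile programme on, and several noncoding RNAs are known to act with it or to mark cell state.

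A barcode was kept as a cell if its gene count lay between 1000 and 5000, its count of UMIs (unique molecular identifiers, each marking 1 captured transcript) between 1500 and 25000 and its mitochondrial share under 20%, which 24972 of 30716 did. The libraries held 1863 to 6395 of these cells and 18218282 to 38105145 UMIs, with a median of 5572 to 9838 UMIs per cell. Of the kept cells, 152 shared their barcode sequence with a cell of another library, and without them no ratio between classes or subclusters moved by more than 1 SD of the libraries. Clustering without the 10 genes gave 10101 VSMC-like, 13695 fibroblast-like, 571 endothelial-like, 547 leukocyte-like and 58 glia-like cells. The summed level of 8 VSMC markers was 63044 to 68662 CPM (UMIs of a gene relative to all UMIs of the same cells and library) in VSMC-like and 1781 to 6723 CPM in fibroblast-like cells. Leukocyte and endothelial markers summed to at most 28.0 and 48.5 CPM in VSMC-like cells. Since UMIs mark transcript ends and were not divided by length, levels are compared between cells and never between genes.

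The annotation (GENCODE M21, mm10) places Myocd at chr11:65176561-65269989, Srf at chr17:46548329-46556175, Mkl1 at chr15:81012281-81190757, Tet2 at chr3:133463679-133545139 and Olfm2 at chr9:20667690-20746349, all on the minus strand. Mkl2 lies on the plus strand at chr16:13256481-13417529. Of the noncoding RNAs, Meg3 lies on the plus strand at chr12:109541001-109571726. Malat1 (chr19:5795690-5802672) and Neat1 (chr19:5824708-5845478) are neighbours on the minus strand, 22035 bases apart. Exons of Mkl1 overlap Sgsm3 on the opposite strand, a gene with 521 UMIs in VSMC-like cells against 592 of Mkl1, and the strand setting of the counting was not given in the sources used here, so values of Mkl1 are uncertain to that extent.

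Promoter windows of RefSeq (GRCm38.p6, 250 bases before to 50 after a start site) were searched for the CArG box, which reads the same on both strands. It occurred in 535 of 32851 windows (1.63%) and in 488 of 27025 genes (1.81%). Entries were found for 7 of the 10 members, and 2 of these genes, Srf and Meg3, held a box, 28.6%. The windows around these boxes are shown because they are the members' own candidate letters for the factor that Srf encodes, beside 1 contractile gene (Myl9, regulatory myosin light chain) and 1 immediate-early gene (Egr2) of the target lists used below, the only genes with a box among 13 and 6 with entries in those lists. Egr2 held a further box in the window of another start site, at chr10:67537772-67537831, which is not shown. Each window is read on the strand of its gene with the box in capitals.
Srf, chr17:46556210-46556269, minus strand: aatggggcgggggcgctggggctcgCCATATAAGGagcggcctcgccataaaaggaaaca
Srf, chr17:46556190-46556249, minus strand: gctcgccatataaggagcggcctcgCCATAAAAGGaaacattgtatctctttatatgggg
Meg3, chr12:109545279-109545338, plus strand: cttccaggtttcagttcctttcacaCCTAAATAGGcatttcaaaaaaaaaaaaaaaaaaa
Myl9, chr2:156775278-156775337, plus strand: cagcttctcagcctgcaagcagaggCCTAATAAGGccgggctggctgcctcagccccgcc
Egr2, chr10:67537469-67537528, plus strand: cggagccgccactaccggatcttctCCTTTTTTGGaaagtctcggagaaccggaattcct
The boxes of Srf end 72 and 52 bases before its start site, and the box of Meg3 ends 84 bases before a start site that lies inside the annotated span of the gene. A match describes letters and was not tied to binding.

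VSMC-like cells differed from fibroblast-like cells in 7 of the 10 members in every library. Myocd, Srf, Tet2 and Carmn were higher in 6 of 6 libraries, 4 members, where 35.2% of the 8155 genes with a mean level of at least 10 CPM were higher in all 6. Mkl2, Neat1 and Meg3 were lower in 6 of 6, 3 members, where 36.5% of those genes were lower. Mkl1, Malat1 and Olfm2 did not keep 1 direction. Of these, Mkl1 and Olfm2 were under 10 CPM and are not among the genes that give the shares. Most genes keep a direction between these classes, so the counts of members do not stand out, and the sizes are given by the following values.

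**Figure D1:**
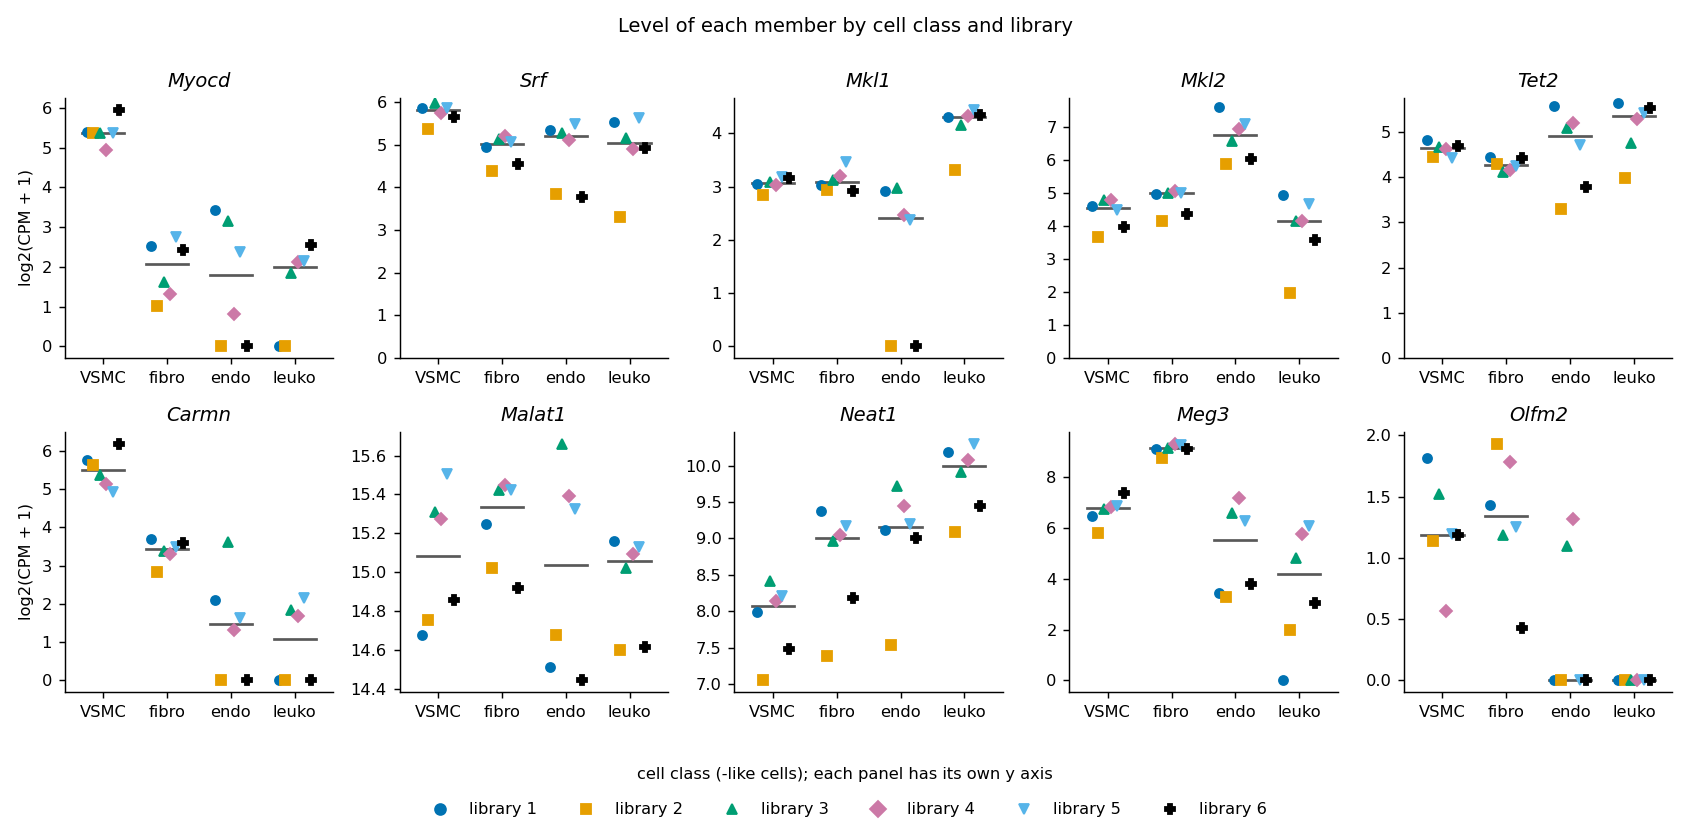
Level of each member, as log2(CPM + 1), in VSMC-like, fibroblast-like, endothelial-like and leukocyte-like cells; each symbol is 1 library and each bar the median of 6 libraries, with a y axis of its own per gene. The 6 VSMC-like values of Myocd and Carmn lie above all values of the other classes, those of Meg3 lie below all 6 fibroblast-like values, and those of Neat1 lie lowest by median.

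Myocd, the coactivator that is largely restricted to muscle, stood at 41.1, 40.1, 40.4, 29.7, 40.2 and 61.3 CPM in VSMC-like cells of libraries 1 to 6. In fibroblast-like cells it stood at 1.04 to 5.71 CPM (median 3.24). The groups did not overlap, with library 6 highest and library 4 lowest among the VSMC-like values and the other four close together. The median within-library log2 ratio was 4.02 (range 2.81 to 5.23), or 16.2-fold. A Myocd UMI was found in 25.7% of VSMC-like cells (95% exact binomial interval 24.8 to 26.5%, counting error alone) and in 1.57% of fibroblast-like cells. Cells with at least 3000 UMIs were then thinned to 3000, and shallower cells were left out of all thinned shares. This kept 9557 VSMC-like, 12485 fibroblast-like and 447 leukocyte-like cells. The thinned shares of VSMC-like and fibroblast-like cells were 11.3% and 0.72% (0.58 to 0.89%), beside 0.67% (0.14 to 1.95%) in leukocyte-like cells. The unthinned medians were 7204, 6145 and 5156 UMIs per cell. The share in fibroblast-like cells as a whole lay within the interval of leukocyte-like cells, which rests on few cells, and is not read as expression. It was uneven among fibroblast-like clusters, with a thinned share of 1.22% (0.90 to 1.61%) in the cluster led by Hhip and 0.37% (0.22 to 0.59%) in that led by Has1, at median depths of 5839.5 and 5818.5 UMIs. Cardiomyocytes also make Myocd. Their 7 markers summed to 39.1 to 271 CPM in VSMC-like and 28.3 to 46.4 CPM in VSMC1-like cells (the larger of the subclusters described later), where Myocd had nearly the same median, 40.2 against 40.3 CPM. The VSMC-like class included a finer subcluster of 19 cells led by Myl3, Myl7 and Cox6a2, with Myh6, Actc1 and Tnni3 also among its leading genes. The part of cardiomyocytes in the level of Myocd was not tested.

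Srf, the DNA-binding partner, was spread more evenly. It ranged from 40.5 to 61.5 CPM in VSMC-like cells (median 54.9) and from 19.9 to 35.8 CPM in fibroblast-like cells (median 31.1), without overlap. The log2 ratio was 0.89 (0.56 to 1.15), a 1.86-fold difference. Endothelial-like and leukocyte-like cells had medians of 35.6 and 31.9 CPM, and their ranges overlapped that of fibroblast-like cells.

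The myocardin-related coactivators were not higher in VSMC-like cells than in fibroblast-like cells. Mkl1 (MRTF-A) had 6.20 to 8.04 CPM in VSMC-like and 6.59 to 9.95 CPM in fibroblast-like cells, ranges that overlap, and was higher in VSMC-like cells in 2 of 6 libraries. It was higher in leukocyte-like cells, at 8.88 to 20.8 CPM (median 18.8), with every library above its VSMC-like value and library 2 the lowest. Only 60 UMIs in 547 cells stand behind these values. In that comparison Mkl1 and Neat1 were the members higher in 6 of 6 libraries, against 26.5% of genes, with a log2 ratio of 1.31 (0.51 to 1.40) for Mkl1. Without cells marked as doublets, Mkl1 was higher in 5 of 6 libraries.

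Mkl2 (MRTF-B) was lower in VSMC-like than in fibroblast-like cells, with 11.8 to 26.6 CPM against 16.8 to 32.5 CPM and a log2 ratio of -0.40 (-0.55 to -0.24). The ranges overlap across libraries, but the order was the same within each. Endothelial-like cells held far more, at 194, 57.4, 94.3, 121.5, 135.3 and 63.9 CPM in libraries 1 to 6. All 6 values were above every value of the other classes, and the log2 ratio over VSMC-like cells was 2.23 (1.83 to 3.04), or 4.68-fold. These cells fell into a cluster led by Gpihbp1, Rbp7 and Cd36 (337 cells) and a cluster led by Ccl21a, Mmrn1 and Nts (234 cells). The median Mkl2 level was 144 CPM (75.9 to 215) in the first and 66.3 CPM (14.7 to 74.2) in the second. After thinning, which kept 417 of the 571 endothelial-like cells, 25.4% (21.3 to 29.9%) of those kept held an Mkl2 UMI. The shares were 6.87% in VSMC-like and 4.03% in leukocyte-like cells. Endothelial-like cells had a median depth of 4692 UMIs before thinning. Mkl2 and Neat1 were the members higher in endothelial-like than in VSMC-like cells in 6 of 6 libraries, against 25.7% of genes. The median log2 ratio of all genes was 0.16 in that comparison and -0.15 in leukocyte-like over VSMC-like cells. One library had only 10 endothelial-like cells.

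Tet2, a dioxygenase that oxidizes methylated cytosine, showed small differences. VSMC-like cells had 20.5 to 27.0 CPM and fibroblast-like cells 16.3 to 20.8 CPM, which overlap slightly, with a log2 ratio of 0.32 (0.16 to 0.57). Leukocyte-like cells had a median of 39.8 CPM (14.8 to 48.6) and were above VSMC-like cells in 5 of 6 libraries. Olfm2, an olfactomedin family protein described as a partner of SRF, was rare. It had 117 UMIs in all VSMC-like and 171 in all fibroblast-like cells, 3 in endothelial-like and none in leukocyte-like cells, where 3 UMIs would be 0.884 CPM. A difference between VSMC-like and fibroblast-like cells was not detectable at this depth.

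Carmn, a smooth muscle noncoding RNA that is the host transcript of a microRNA pair and is known to bind myocardin, was the other member that set VSMC-like cells apart. Its levels in libraries 1 to 6 were 53.0, 48.7, 40.1, 34.2, 29.4 and 71.9 CPM in VSMC-like cells. In fibroblast-like cells they were 12.0, 6.10, 9.35, 8.86, 10.1 and 11.1 CPM. The groups did not overlap, and library 6 was again highest among VSMC-like cells. The log2 ratio was 2.12 (1.54 to 2.99), or 4.35-fold. After thinning, 11.3% of VSMC-like and 2.57% (2.30 to 2.86%) of fibroblast-like cells held a Carmn UMI, and 0 of 447 leukocyte-like cells did, which allows a share of up to 0.82%. The share in endothelial-like cells was 0.96% (0.26 to 2.44%), an interval that overlaps that of fibroblast-like cells. Whether the Carmn UMIs of fibroblast-like cells were made in them was not tested. Within the fibroblast-like cells, Carmn had medians of 14.8 and 13.9 CPM in the clusters led by Hhip, Pex5l and F3 and by Mmp3, Gm26870 and Col6a5, and 5.0 CPM in the largest cluster, led by Has1, Ccl11 and Spon2.

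Myocd, Srf and Carmn, 3 members, were lower in endothelial-like than in VSMC-like cells in every library, against 18.7% of genes with at least 10 CPM. In leukocyte-like cells Myocd, Srf, Carmn and Meg3, 4 members, were lower, against 34.8% of genes. Mkl1 in endothelial-like cells (16 UMIs) and Olfm2 in leukocyte-like cells (0 UMIs) are not read as lower, since a library without a UMI allows more than the VSMC-like level. The direction of Srf is uncertain in some libraries, where its upper 95% counting limit passed the VSMC-like level. In endothelial-like cells these were libraries 1, 5 and 6, the last with 1 UMI and a limit of 71.2 against 49.5 CPM. In leukocyte-like cells they were libraries 1 and 5, with limits of 78.3 and 81.4 against 57.0 CPM. Endothelial-like cells held 13 Myocd and 14 Carmn UMIs in all, and leukocyte-like cells 10 and 5. The 58 glia-like cells held none of either, which allows up to 13.7 CPM.

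Meg3, an imprinted noncoding RNA expressed from the maternal allele, was highest in fibroblast-like cells. Fibroblast-like cells had 549, 431, 566, 637, 616 and 547 CPM in libraries 1 to 6, a narrow range. VSMC-like cells had 87.9, 54.6, 107, 110.9, 115 and 166 CPM, with library 6 highest and library 2 lowest. The groups did not overlap, and the level was 5.54-fold lower in VSMC-like cells (log2 ratio -2.47, -2.98 to -1.72). The 6 fibroblast-like clusters had medians between 468 and 625 CPM, so no single cluster carried the difference. The 58 glia-like cells had a median of 301 CPM, on 63 UMIs. After thinning, 65.3% of fibroblast-like, 16.6% of VSMC-like, 12.0% of endothelial-like and 3.13% (1.72 to 5.20%) of leukocyte-like cells held a Meg3 UMI. Fibroblast markers summed to 970 to 2268 CPM in VSMC-like cells and to 24452 to 28107 CPM in fibroblast-like cells, and their part in the VSMC-like level of Meg3 was not tested.

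Neat1 scaffolds nuclear paraspeckles, and Malat1 is a nuclear transcript linked to splicing. Neat1 had its lowest median in VSMC-like cells, with 132 to 340.4 CPM (median 267), against 167 to 663 CPM in fibroblast-like, 186 to 845 CPM in endothelial-like and 545 to 1262 CPM in leukocyte-like cells. It was lower in VSMC-like than in fibroblast-like cells in all 6 libraries (log2 ratio -0.81, -1.39 to -0.34), and 4.03-fold higher in leukocyte-like than in VSMC-like cells. Library 2 was the lowest library in each of these 4 classes. Malat1 differed little between classes (log2 ratio of VSMC-like over fibroblast-like -0.14, lower in 5 of 6 libraries) and more between libraries. In VSMC-like cells libraries 3, 4 and 5 had 40612, 39661 and 46465 CPM, and libraries 1, 2 and 6 had 26148, 27610.05 and 29693 CPM, with a wide gap. Median depth split the libraries the same way, with 5572 to 6436 UMIs per cell in libraries 3 to 5 and 7530 to 9838 in the others. The methods state that preparation took place on multiple days, but no library is assigned to a day. Depth and preparation day therefore cannot be told apart here. The 58 glia-like cells had 61964 to 88780 CPM, above every value of the other classes. They numbered 4 to 18 per library and had the lowest median depth of the classes, 3003 UMIs. The part of depth in this level was not tested.

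Across 24 sums (4 classes in 6 libraries) the genes with the most similar pattern were found by Pearson's r of log2(CPM + 1) over 8865 genes, as a description of points that share libraries and classes. For Myocd they were Slc22a3 (an organic cation transporter, r = 0.961), Itga7 (a laminin-binding integrin, 0.959) and Susd5 (0.952). For Carmn they were Cryab (a small heat shock protein, 0.954), Olfr1033 (0.946) and Galnt16 (a glycosyltransferase, 0.944). For Meg3 they were Tnxb (tenascin X, 0.959), Thbs3 (a thrombospondin, 0.933) and Bace1 (a protease, 0.918). For Neat1 they were BC005537 (0.963), Papd4 (a poly(A) polymerase, 0.936) and Flcn (folliculin, 0.917).

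Subclustering without the members, the lists below and all naming markers divided VSMC-like cells into a VSMC1-like subcluster (8259 cells) and a VSMC2-like subcluster (1568 cells), named by the levels of Enpep and Notch3 less those of Tes and Ptprz1. They held 81.8% and 15.5% of VSMC-like cells, and the rest were in neither. Median depths were close, 7292 and 6896 UMIs per cell. The subclusters differed in the share of UMIs from a list of 20 dissociation stress genes, with a median of 1.04% in VSMC1-like and 2.28% in VSMC2-like cells, and cells marked as doublets made up 1.28% and 5.23%.

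Myocd, which separated VSMC-like cells from all others, did not separate the subclusters. It stood at 51.0, 41.2, 30.3, 28.8, 46.1 and 65.0 CPM in VSMC2-like and 40.1, 40.2, 42.2, 30.2, 39.3 and 61.9 CPM in VSMC1-like cells of libraries 1 to 6. The ranges overlap and the log2 ratio was 0.05 (-0.48 to 0.35), higher in 4 of 6 libraries. Mkl2, Tet2, Neat1 and Meg3 likewise went both ways, with median log2 ratios of 0.26, -0.08, 0.17 and 0.04, beside a median of -0.06 over all 7655 genes. Olfm2 was higher in 5 of 6 libraries (0.58), on 24 and 91 UMIs.

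Carmn was the only member lower in VSMC2-like cells in 6 of 6 libraries, where 22.1% of genes were lower. It had 39.9, 32.2, 21.1, 22.3, 27.5 and 49.7 CPM in VSMC2-like cells of libraries 1 to 6. In VSMC1-like cells it had 52.3, 51.6, 42.2, 36.8, 29.7 and 77.2 CPM. The ranges overlap across libraries, but every library had the lower value in VSMC2-like cells, and library 5 had the smallest difference. The log2 ratio was -0.66 (-0.99 to -0.11). Among cells under the median stress share of their library and class, 361 VSMC2-like and 4532 VSMC1-like cells, the log2 ratio of Carmn was -0.03 and 3 of 6 libraries had the higher value in VSMC2-like cells.

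Srf, Mkl1 and Malat1 stood above their VSMC1-like levels in 6 of 6 libraries, where 13.3% of genes did. Malat1 had 33683, 33203, 49849, 45289, 50686 and 32378 CPM in VSMC2-like and 25157, 26532, 39238, 37926, 45669 and 28619 CPM in VSMC1-like cells, a log2 ratio of 0.29 (0.15 to 0.42). The ratio of Srf was small, 0.10 (0.04 to 0.50), and that of Mkl1, which is under 10 CPM, was 0.50 (0.06 to 1.15). The 95% counting limits of Srf overlapped in all libraries but library 2, so its direction is uncertain there. In library 1 they were 48.2 to 75.3 CPM in VSMC2-like and 52.8 to 61.0 CPM in VSMC1-like cells. Mkl1 rested on 128 UMIs in VSMC2-like cells, and its limits also overlapped in most libraries. Among cells under the median stress share the ratio of Srf was -0.12 with 1 of 6 libraries higher, that of Malat1 was 0.09 with 5 of 6 higher and that of Mkl1 was 0.65 with 6 of 6 higher. In those cells Myocd had a ratio of 0.41 and was higher in 6 of 6 libraries. With log-normalized counts and no integration, Srf and Malat1 were higher in 4 and Mkl1 in 5 of 6 libraries, and Carmn was lower in 6 of 6 (-0.81). The share of all genes that keep a direction is not given for either setting, and the first rests on 361 VSMC2-like cells. The directions of members under these settings are therefore not read as results.

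**Figure D2:**
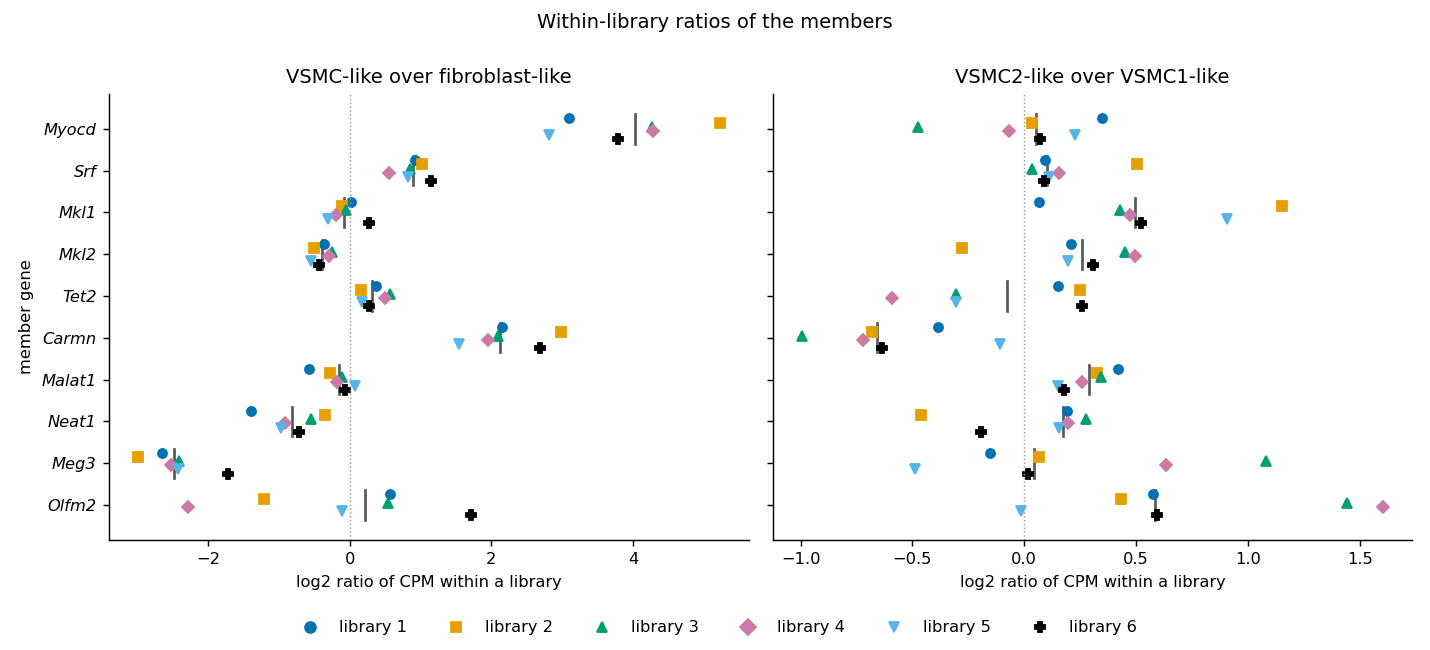
Within-library log2 ratio of CPM of each member, VSMC-like over fibroblast-like cells (left) and VSMC2-like over VSMC1-like cells (right); each symbol is 1 library, each bar the median of 6 libraries and the dotted line a ratio of 0. The ratios of Myocd (2.81 to 5.23) and Carmn (1.54 to 2.99) lie far to the right and those of Meg3 (-2.98 to -1.72) far to the left in the first panel, while in the second most members sit around 0 and those of Carmn are all below it.

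Genes around the members were taken from lists and are described by counts, with ratios as medians of 6 libraries. The 16 contractile CArG genes are the textbook output of the system: 8 were higher and 3 lower in VSMC2-like than in VSMC1-like cells in 6 of 6 libraries, where 13.3% of all genes were higher and 22.1% lower. The median log2 ratio of the list was 0.04. Actg2 (smooth muscle γ-actin, 0.53) and Tpm2 (tropomyosin, 0.42) had the largest ratios, and Des (desmin, -1.11) and Flna (filamin A, -0.32) the smallest. Over fibroblast-like cells all 16 were higher, but 8 of them are the markers that named the VSMC-like class. Of the 9 immediate-early genes, 8 stood higher in the VSMC2-like subcluster (median 1.11), among them Egr2 (3.16) and Junb (1.32). Fos had a ratio of 0.73 and Mcl1, higher in 5 of 6 libraries, 0.24. Between VSMC-like and fibroblast-like cells, 7 of these 9 were lower in VSMC-like cells and none was higher (median -1.27). Of 21 SRF partners 11 were higher and 6 lower in that comparison (median 0.21), of 9 MRTF targets 5 and 2 (1.62) and of 10 other noncoding RNAs 3 and 5 (-0.30), beside a median of -0.01 over all genes, of which 35.2% were higher and 36.5% lower. Among genes with at least 50 CPM the medians of the SRF partners and MRTF targets were 0.85 and 0.91. Actn1, Csrp2 and Hotairm1 had ratios of 2.93, 2.89 and 1.65 there, and Tpm4 and Kcnq1ot1 -1.28 and -1.35.

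Of 19 SRF partners with at least 10 CPM, 4 had higher and 2 had lower levels in the VSMC2-like subcluster (median 0.03), and the counts in this paragraph stand beside the same 13.3% and 22.1% of all genes. Fhl2, a LIM protein that binds SRF, had 169 against 27.0 CPM (2.52), and Prrx1, a homeodomain factor, 132 against 53.7 CPM (1.27), while Fhl1 (-0.38) and the LIM protein gene Csrp2 (-0.34) were lower. Of 9 MRTF targets, 1 was higher and 3 lower (median -0.07): Cyr61, a matricellular protein gene, had a ratio of 0.81, Tpm4 0.08, Actn1 (α-actinin) -0.33 and Itga5 -0.76. Of 10 other noncoding RNAs, 1 was higher (Snhg12, 0.52) and 2 were lower (median -0.24), with Hotairm1 at 16.1 against 71.8 CPM (-2.15). Kcnq1ot1 and Airn, both imprinted antisense RNAs, had 0.17 and -0.43 and did not keep 1 direction. Of the 20 stress genes, which share Fos, Junb, Egr1, Ier2 and Nr4a1 with the immediate-early list, 16 were higher and 1 lower (median 1.00). Ier3 had a ratio of 1.56, Hsp90aa1 0.03 and Klf6 -0.13.

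The level of Carmn fell steeply with the dissociation stress share. VSMC-like cells of each library were divided into tertiles by that share, whose median was 3.39% in the upper and 0.418% in the lower tertile. Carmn had 26.8, 27.6, 19.1, 17.1, 10.4 and 30.6 CPM in the upper tertile of libraries 1 to 6. In the lower tertile it had 76.6, 76.1, 62.3, 55.0, 56.5 and 111.1 CPM. All 6 values of the upper tertile were below all 6 of the lower tertile, and the level was 3.22-fold lower (log2 ratio -1.69, -2.44 to -1.46). Carmn and Tet2 (-0.24) were lower in 6 of 6 libraries, where 25.4% of 7682 genes were lower.

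Neat1 and Malat1 went the other way. Neat1 had 338, 157, 618, 421, 442 and 232 CPM in the upper and 212, 129, 179, 180.2, 183 and 165 CPM in the lower tertile of libraries 1 to 6, a log2 ratio of 0.95 (0.28 to 1.78). The lower-tertile values lay between 129 and 212 CPM, while those of the upper tertile were spread over 157 to 618 CPM and partly overlapped them. Malat1 had 29845 to 55461 CPM in the upper and 22765 to 39720.1 CPM in the lower tertile, a log2 ratio of 0.55 (0.32 to 0.75). Neat1 and Malat1 were higher in 6 of 6 libraries, where 8.53% of genes were higher. Myocd (0.10, -0.45 to 0.47), Srf (0.16, higher in 5 of 6), Mkl1 and Mkl2 did not keep 1 direction.

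**Figure D3:**
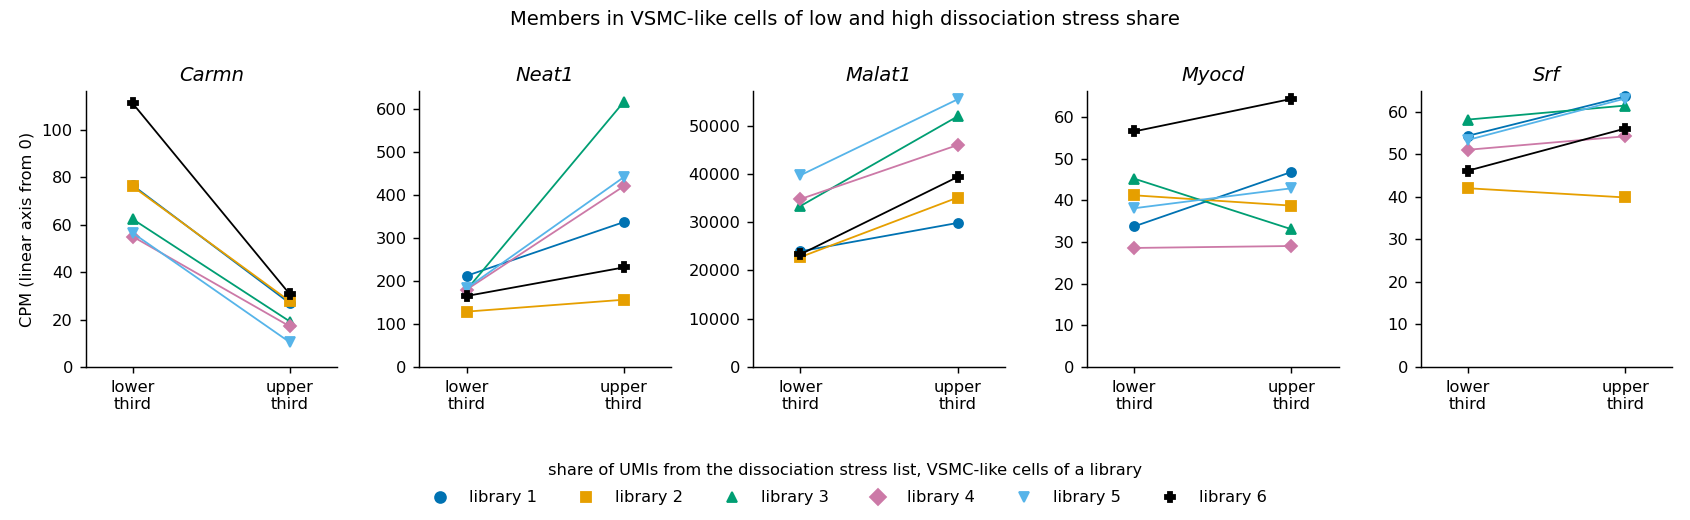
CPM (linear axis from 0) of Carmn, Neat1, Malat1, Myocd and Srf in VSMC-like cells of the lower and upper tertile of the dissociation stress share; each line joins the values of 1 library. All 6 lines of Carmn fall, all 6 of Neat1 and Malat1 rise, and those of Myocd and Srf cross or stay near level.

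The same order held inside each subcluster. In VSMC1-like cells the log2 ratio of the upper over the lower tertile was -1.63 for Carmn (-2.65 to -1.47), 0.98 for Neat1 and 0.48 for Malat1. Mkl1 (-0.15) and Tet2 (-0.28) were also lower there in 6 of 6 libraries, so 3 members were lower and 2 were higher, against 18.7% and 6.13% of genes. Mkl1 is under 10 CPM there and is not among the genes that give these shares. In VSMC2-like cells, with 524 cells in each tertile, the ratios were -1.26 for Carmn (-2.01 to -0.06), 1.06 for Neat1 and 0.43 for Malat1. These were the members that kept 1 direction, against 10.4% of genes lower and 4.34% higher. In fibroblast-like cells Neat1 (0.94), Malat1 (0.29), Srf (0.38) and Meg3 (0.24) were higher in the upper tertile in 6 of 6 libraries, against 8.96% of genes, and Carmn was lower in 5 of 6 (-0.37).

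Depth and mitochondrial share moved with the members as well. In the upper tertile of UMIs per cell (median 10482.5 against 4400.5) 8 members were lower in 6 of 6 libraries, against 26.3% of genes, with a log2 ratio of -0.76 for Malat1, -0.65 for Neat1, -0.57 for Carmn and -0.40 for Srf. The 8 include Mkl1, which is under 10 CPM and is not among the genes that give that share. Myocd was lower in 5 of 6 libraries (-0.14). In the upper tertile of the mitochondrial share (5.97% against 2.73%) Carmn (0.95), Tet2 (0.57) and Srf (0.21) were higher in 6 of 6 libraries, against 18.2% of genes. The mitochondrial share was itself lower where stress was high, 3.54% against 4.53%. The part of depth, dissociation and mitochondrial share in the differences between subclusters was not tested.

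VSMC-like cells were also divided more finely, at a resolution of 0.4, and the subclusters are called by number and leading genes. Among subclusters with more than 19 cells, Carmn had its lowest medians in the 2 with the highest stress share, 18.9 CPM (10.5 to 29.9) in subcluster 1, led by Sprr1a, Gm17056 and Pou3f1 (1522 cells, stress share 3.54%), and 17.5 CPM (12.2 to 25.9) in subcluster 5, led by Olfr558, Acta1 and Nrip2 (581 cells, 3.08%). Neat1 had medians of 437 and 363 CPM there. All 581 cells of subcluster 5 were VSMC2-like and 0.329% of those of subcluster 1. The other large VSMC2-like subcluster, number 3, led by Cfd, Col8a1 and Cd93 (915 cells, 1.82%), had a Carmn median of 37.7 CPM, so the lower Carmn of VSMC2-like cells was uneven within them.

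Subcluster 9 stood apart in a different way. Its 275 cells were led by Dlx6, Negr1 and Prrx2, genes that include transcription factors of craniofacial and neural crest development. Meg3 had 356, 62.6, 292, 348, 336 and 429 CPM there in libraries 1 to 6, against 74.6, 54.4, 101, 105, 113 and 158 CPM in all other VSMC-like cells. All libraries but library 2 showed a difference of more than 2-fold, and the median log2 ratio was 1.55 (0.20 to 2.25). Myocd was lower, with 40.8, 22.4, 28.4, 16.9, 19.4 and 19.5 CPM against 41.2, 40.5, 40.8, 30.0, 40.3 and 62.5 CPM (log2 ratio -0.84, -1.68 to -0.01). Library 1 showed no difference in Myocd, and only 57 UMIs stand behind the 6 values. Meg3, Neat1 (0.67) and Srf (0.18) were higher in 6 of 6 libraries, against 10.8% of 7947 genes, and Myocd was the only member lower in 6 of 6, against 5.74%. The ratios of Srf were small (0.05 to 0.45) and rest on 122 UMIs in these cells, so its direction is uncertain. Carmn was higher in 5 of 6 (0.69). The stress share of these cells was 0.816%, under that of other VSMC-like cells (1.24%), and their median depth was 6351 against 7226.5 UMIs. Fibroblast markers made up 0.278% of their UMIs, against 0.105%, and the part of this in the level of Meg3 was not tested. Of the contractile list 12 of 16 genes were lower in 6 of 6 libraries and none was higher (median -0.42).

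In subcluster 2, led by Snhg11, Gm26870 and Tmem229b (1465 cells), Malat1 had a median of 58572 CPM, the highest of the subclusters with more than 19 cells, beside a low median depth of 4322 UMIs and a mitochondrial share of 6.80%. Carmn (65.7 CPM), Myocd (50.4 CPM), Tet2 (36.2 CPM) and Srf (66.0 CPM) were also at or near their highest there. Subcluster 11 (83 cells) was marked as doublets in 66.3% of its cells, and its Meg3 median of 254 CPM is given with that limit.

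**Figure D4:**
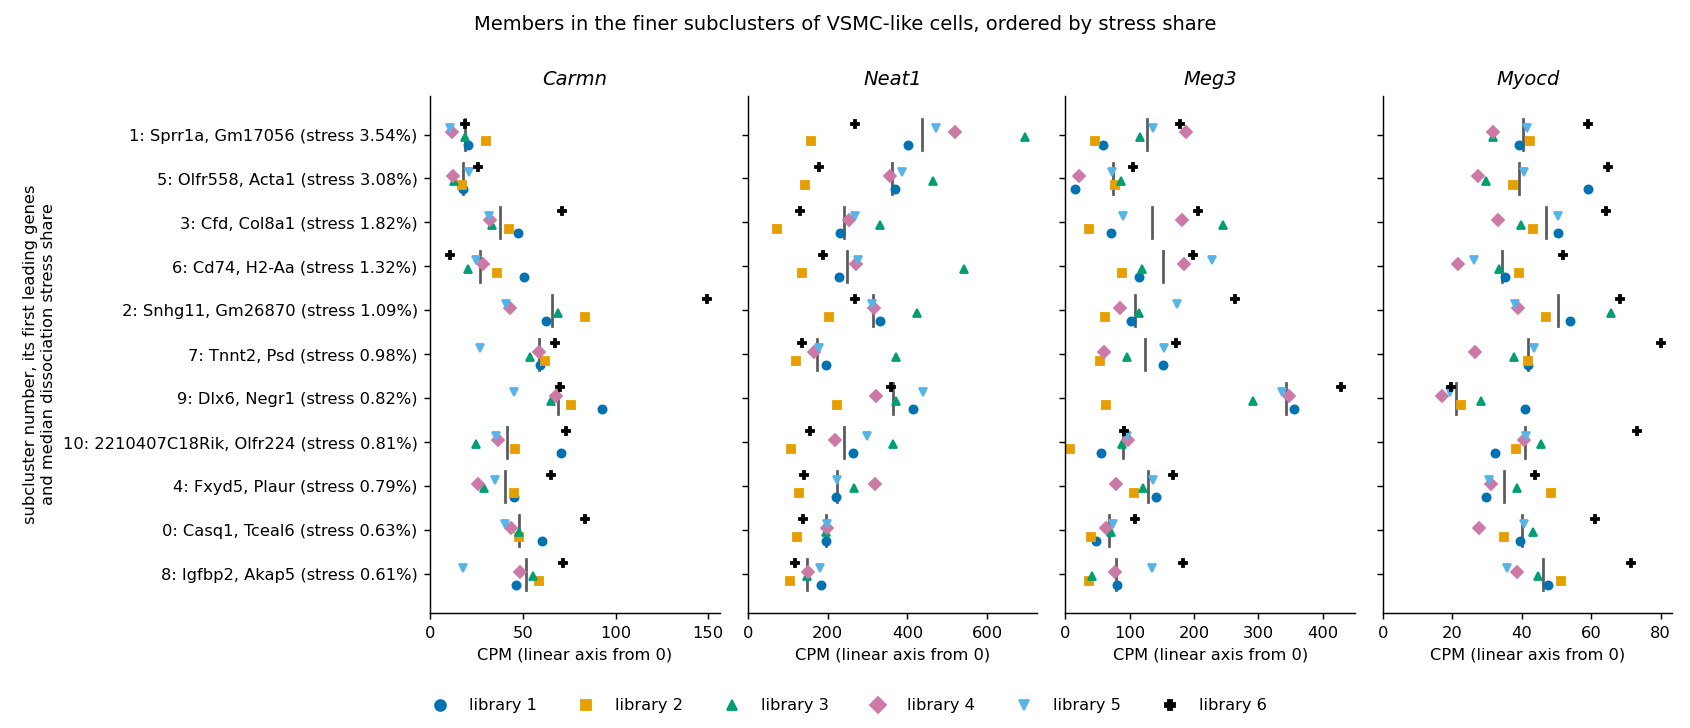
CPM (linear axis from 0) of Carmn, Neat1, Meg3 and Myocd in 11 finer subclusters of VSMC-like cells, ordered from low (bottom) to high (top) median dissociation stress share; each symbol is 1 library and each bar the median of 6 libraries. The 2 top rows have the lowest Carmn medians and the top row has the highest Neat1 median, and the Dlx6-led subcluster 9 has the highest Meg3 and the lowest Myocd median.

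Members were also compared from cell to cell, by whether a cell held a UMI of another member. In VSMC1-like cells thinned to 3000 UMIs, cells with a Carmn UMI (889) had a median stress share of 0.559% and those without (6902) 1.11%. Meg3 had 63.8 CPM in cells with and 90.5 CPM in cells without a Carmn UMI (log2 ratio -0.64, -0.89 to -0.28). In the reverse split, Carmn in cells with a Meg3 UMI (1249) over those without, the ratio was -0.44 (-0.76 to 0.12), with 1 of 6 libraries the other way. Myocd had 39.5 CPM in cells with and 39.9 CPM in cells without a Carmn UMI, with a ratio of 0.09 and 4 of 6 libraries higher. In cells with a Myocd UMI (881), Srf had a ratio of 0.31 and was higher in 5 of 6 libraries, on 177 UMIs. The share of all genes that keep a direction in these splits was not computed, so nothing is read from the directions.

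The tracer transcript GFP reached at least 100 UMIs in libraries 1 to 4, although the labels name the tracer for 2 mice. In VSMC1-like cells of these libraries, cells with a GFP UMI (61 to 146 per library) had 44.0, 51.8, 46.4 and 39.9 CPM of Myocd. The log2 ratio over cells without was 0.29 (0.14 to 0.43) for Myocd, on 22 to 66 UMIs per library, and -0.35 for Carmn. Cells with a GFP UMI were also deeper in each library, and since the share of all genes that keep a direction was not computed for this split, nothing is read from it.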

How the data were processed

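The authors deposited whole UMI counts per gene and cell barcode in 1 matrix, aligned to mm10 and aggregated over libraries. The submitters' processing notes name Cell Ranger V6 and the matrix header 4.0.0, and whether aggregation equalized depth is not given in the sources used here. The members and lists were chosen with earlier results of these data known.

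Python 3.11.15 (scanpy 1.11.5) and R 4.3.3 (Seurat 5.3.0, sctransform 0.4.2) were used. Libraries were normalized with SCTransform v2 without glmGamPoi, integrated by RPCA over 30 principal components and clustered at a resolution of 0.25, with members and lists left out of the 3000 variable genes. A class needed 3 markers in 10% of cells at 1.5 times the median cluster. VSMC-like cells were subclustered at the first resolution with 2 subclusters of at least 5% of cells, and the one with the highest Enpep and Notch3 less Tes and Ptprz1 was called VSMC2-like. These names were rebuilt here and may differ from those of the study. Doublets were marked with scrublet (the 5% highest scores in libraries 2 and 5) and kept.

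UMIs were summed per library and group and given as CPM. Log2 ratios were taken within a library after 0.5 UMI, in proportion to each total, had been added, and summarized as the median of 6 libraries. A direction in 6 of 6 libraries was counted beside that of all genes with a mean of at least 10 CPM, and the ratio was checked on simulated counts. P-values are not given, because the genotype of each library is unknown and the 6 libraries mix 2 conditions. Medians of CPM and of ratios were taken separately. Named genes are the 10 members, for each list the 2 largest and 2 smallest ratios of VSMC2-like over VSMC1-like, the 3 genes most like Myocd, Carmn, Meg3 and Neat1, leading genes of clusters by fold and naming markers. Alternatives are given in the closing section. Intervals and limits cover counting error alone. The results of 1 further gene list are not reported here.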

Additional observations from a re-analysis of the deposited data

Results flagged for a closer look

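In each set of 6 libraries the highest and lowest value were compared with their nearest neighbour by Dixon's criterion in 40 sets of which 2 passed, and chance flags about 1 in 20. Myocd in VSMC-like cells of library 6, at 61.3 CPM, stood above the other libraries, which had 29.7 to 41.1 CPM. The log2 ratio of Srf of VSMC2-like over VSMC1-like cells in library 2, 0.50, stood above the others, which had 0.04 to 0.15. The cause of either was not tested.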

How the results depend on the processing

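The 10 ratios of VSMC-like over fibroblast-like cells stayed within 1 SD of the libraries in 160 of 160 recomputations. Of those of VSMC2-like over VSMC1-like cells 172 stayed, 7 moved and 1 turned. For endothelial-like and leukocyte-like over VSMC-like cells 154 and 155 of 160 stayed and 6 and 5 moved, none of them of Mkl2 or Neat1. Among cells under the median stress share Srf turned (-0.12), and Carmn (-0.03), Malat1 (0.09) and Myocd (0.41) moved, with 0 members lower in every library. With log-normalized counts and no integration 0 members were higher in every library. For leukocyte-like over VSMC-like cells 1 member was higher without doublets and 3 were lower under the median stress share, against 2 and 5 with Olfm2 at 0 UMIs counted. Shares of all genes are not given under these settings, so the counts of members are not read as results. The cause of these changes was not tested.

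With a floor of 50 CPM fewer genes were tested. The genes higher and lower in 6 of 6 libraries numbered 1245 and 1060.0 for VSMC-like over fibroblast-like, 999 and 807 for endothelial-like over VSMC-like, 887 and 1237 for leukocyte-like over VSMC-like and 527 and 801 for VSMC2-like over VSMC1-like cells. With no floor other than 1 UMI, 6116, 2788 and 4726 genes were lower in the first 3 of these. At the floor of 50 CPM, list medians of VSMC-like over fibroblast-like cells moved to 0.85 for SRF partners and 0.91 for MRTF targets. Leaving out each library in turn gave 3 to 4 members lower for VSMC-like over fibroblast-like and 3 to 4 higher for VSMC2-like over VSMC1-like cells. The shares of all genes are not given for these sets of libraries, so nothing is read from the counts.

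Exactly 2 subclusters could not be had with log-normalized counts or with all genes kept, so a resolution of 0.05 was used. This, the removal of the 152 cells that share a barcode sequence and the tertiles within subclusters were chosen after seeing the data. No paired analysis was possible because the libraries carry no replicate numbers of the labels, so mice of the 2 genotypes could not be paired, while every ratio was taken within a library. Endothelial-like and leukocyte-like values rest on few UMIs per library, and Olfm2 was too rare to compare.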
